A study of Homo sapiens with 6 samples.

Results

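To follow macroautophagy at the transcript level, 38 genes of the autophagy machinery and its cargo receptors were read out of RNA-seq libraries of HCCC9810 cells, an established human cholangiocarcinoma (CCA) cell line of wild type genotype. The genes were chosen by name, with earlier results of these data known. All 38 were found among the 19470 gene symbols of the count table and kept by the filter on low counts. Cells had received isolinderalactone (ILL), a sesquiterpenoid lactone from plants, at 20 μM for 24 h, or the dimethyl sulfoxide vehicle for the same time, and each group had 3 libraries. The labels do not say whether the libraries came from separate cultures, so p-values measure the spread between these libraries, which may be technical. A single cell line at 1 dose and 1 time was sequenced, and no autophagic flux was measured here.

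In autophagy, a cup-shaped membrane called the phagophore grows around part of the cytoplasm, closes into an autophagosome and fuses with the lysosome. The ULK1 kinase complex starts this process, a class III PI3-kinase complex marks the membrane with phosphatidylinositol 3-phosphate (PI3P), and a conjugation system related to ubiquitin transfer couples the small ATG8 proteins, the LC3 and GABARAP families, to the membrane. Cargo receptors such as p62 (SQSTM1) bind both ubiquitin-marked cargo and ATG8 proteins, and are themselves degraded with the cargo. The transcription factors TFEB and TFE3 can raise many of these genes together with lysosomal genes.

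Depth was even, with total counts between 34282764 and 37758569 per library, and libraries of the same group differed by more than counting noise (chi-square of 5.09 to 11.5 per degree of freedom). Biliary epithelial markers summed to 9050 to 9292 CPM (read counts scaled to library size) in controls and 9531 to 10120 CPM with ILL, but the members of that list moved in opposite directions. CDH1 (log2 fold change 2.07), KRT7 (0.64) and EPCAM (0.24) rose, while KRT18 fell by 0.82, SOX9 by 0.56, KRT19 by 0.18 and KRT8 by 0.16. Markers of other cells were low but higher with ILL in part. Leukocyte markers summed to 37.3 to 41.6 CPM in controls and 113 to 119 CPM with ILL, almost all from CD68, a lysosomal membrane glycoprotein (log2 fold change 1.58), while PTPRC and CD3E had at most 9 counts in any library. Fibroblast markers summed to 11.9 to 13.8 CPM and 16.7 to 18.2 CPM, endothelial markers to 1.03 to 1.65 CPM and 1.74 to 1.91 CPM, and hepatocyte markers to 7.74 to 10.2 CPM and 8.25 to 21.2 CPM, in controls and with ILL in turn. The part of these levels in the results below was not tested. In bulk libraries, fewer cells of a kind and less RNA per cell cannot be told apart.

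Of the 38 genes, 31 rose with ILL and 3 fell at an adjusted p under 0.05 (edgeR's quasi-likelihood test, Benjamini-Hochberg adjustment over 13066 tested genes), and 4 did not pass. Among all tested genes 36.2% rose and 36.9% fell, beside 81.6% and 7.89% of the members. Among genes with a mean of at least 1 CPM, as the members have, 37.2% rose, 38.8% fell and 11.5% rose more than 2-fold. MAP1LC3A met this mean only through its ILL libraries, with means of 0.31 CPM in controls and 2.04 CPM with ILL. Differentially expressed genes (DEGs), which in addition had to change more than 2-fold, numbered 11 higher with ILL, or 28.9% of the members, against 12.5% of all tested genes, and 0 lower, against 11.4%. The lowest log2 fold change of a member was -0.66, short of a 2-fold decrease, so the unadjusted p could not give a lower DEG either. By DESeq2 the count of lower DEGs was also 0. A filter of at least 10 counts in every library removed MAP1LC3A. Under it 30 of 37 members rose, against 37.1% of all genes so tested, and 10 members were higher DEGs. The libraries of the groups did not overlap for 35 members, or 92.1%, against 75.4% of all tested genes. The median log2 fold change of the members was 0.66, beside -0.0012 over all tested genes. Because the members were chosen with earlier results of these data known, these shares and medians are descriptions. They do not test the set. Where no standard error is given with a member's log2 fold change below, it lay between 0.05 and 0.15, apart from ATG10 at 0.21.

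**Figure D1:**
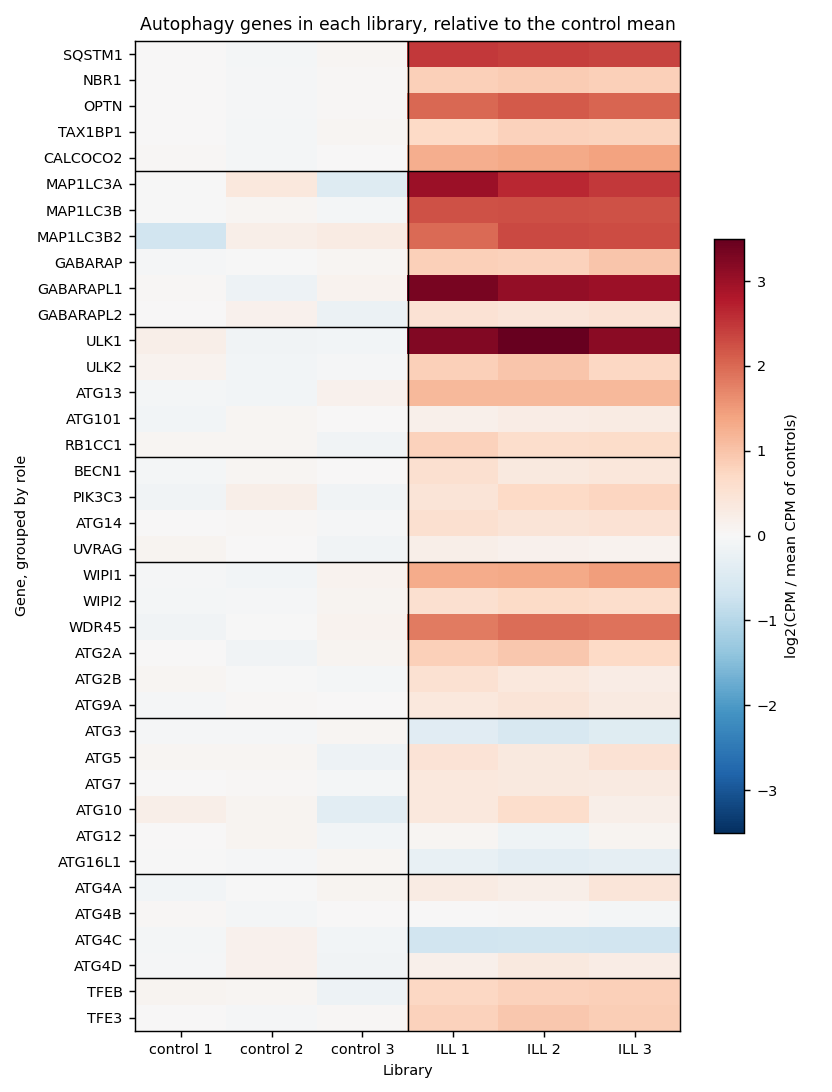
Heat map of the 38 genes (rows, grouped by role) in the 6 libraries (columns); color gives the log2 ratio of CPM to the mean CPM of the control libraries. The ILL columns are red for most rows, deepest for ULK1 and GABARAPL1, and pale or blue for ATG3, ATG12, ATG16L1, ATG4B and ATG4C.

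All 5 cargo receptor genes rose (100%, against 36.2% of all tested genes). SQSTM1, which encodes p62, the receptor that gathers ubiquitinated proteins into bodies and also binds KEAP1, was at 211, 199 and 222 CPM in control replicates 1 to 3 and at 1175, 1125 and 1081 CPM in ILL replicates 1 to 3. The groups were far apart, and the log2 fold change was 2.42 ± 0.05 (SE), with an edgeR adjusted p of 7.9e-22, a 5.34-fold increase. By mean FPKM, a level scaled to gene length and library size, SQSTM1 moved from place 1114 to place 192 among all genes of the table, and from second to first among the members. The gene lies on chromosome 5 of GRCh38 from 179806393 to 179838078, where exons of MRNIP on the opposite strand overlap it. MRNIP was counted at 127, 104 and 121 reads in controls and fell to 68, 73 and 59 reads, so it moved in the other direction and at a far lower level.

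OPTN, which encodes optineurin, a receptor for damaged mitochondria and bacteria, was at 41.5, 39.8 and 42.3 CPM in controls and 166, 182 and 168 CPM with ILL, with no overlap. Its log2 fold change was 2.06 ± 0.06 (SE), and CCDC3, which overlaps it on the opposite strand, had at most 6 counts in any library. CALCOCO2, which encodes the receptor NDP52, was at 37.4, 35.0 and 36.9 CPM in controls and at 87.5, 92.0 and 96.5 CPM with ILL, a log2 fold change of 1.34 ± 0.06 (SE). These genes, with SQSTM1, were DEGs, while NBR1 and TAX1BP1 rose by less than 2-fold. NBR1 was at 44.0, 42.2 and 45.2 CPM in controls and 77.5, 81.6 and 77.9 CPM with ILL (log2 fold change 0.85), and TAX1BP1 had a log2 fold change of 0.76. Both encode receptors that act beside p62 on ubiquitinated cargo. Summed over the 5 receptors, the level was 135 ± 5.78 FPKM (SD, n = 3) in controls and 484 ± 12.8 FPKM (SD, n = 3) with ILL.

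Each of the 6 ATG8 family genes also rose (100%, against 36.2% of all tested genes), though by amounts that ranged from a log2 fold change of 0.48 to 3.13. GABARAPL1, a GABARAP paralog on chromosome 12 from 10212877 to 10223128, was at 4.76, 4.13 and 5.00 CPM in controls and 45.9, 38.9 and 36.6 CPM with ILL. Every ILL library thus lay well above every control library, at an 8.73-fold increase (log2 fold change 3.13 ± 0.11, SE, with an edgeR adjusted p of 3.5e-18). MAP1LC3B, which encodes LC3B, the ATG8 protein most used as an autophagosome marker, lies at chr16:87392336-87404774. It was at 52.1, 55.1 and 49.5 CPM in controls and 247, 248 and 246 CPM with ILL. The spread among ILL libraries was narrow, and the log2 fold change was 2.24 ± 0.06 (SE).

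MAP1LC3A had few reads in controls, at 12, 14 and 8 counts, and 86, 67 and 60 counts with ILL. The groups did not overlap, but its log2 fold change of 2.70 carries a standard error of 0.42. MAP1LC3B2, a close copy of MAP1LC3B, was at 34, 57 and 60 counts in controls and 193, 238 and 236 counts with ILL (log2 fold change 2.20 ± 0.25, SE). In GENCODE release 29, 12.3% of the 100-base windows of MAP1LC3B2 transcripts also occur in MAP1LC3B transcripts. The MAP1LC3B2 count was as large as 1.68% to 3.43% of the separate MAP1LC3B count, by library, so the reads of MAP1LC3B2 itself are uncertain. GABARAP and GABARAPL2, the most abundant members of the family in controls by FPKM, had the smallest log2 fold changes. GABARAP was at 132, 136 and 142 CPM in controls and 242, 238 and 266 CPM with ILL (log2 fold change 0.86). GABARAPL2 was at 41.5, 45.6 and 35.5 CPM in controls and 58.2, 54.7 and 58.1 CPM with ILL (log2 fold change 0.48). For both genes every ILL library lay above every control library.

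Because FPKM is per length, levels of ATG8 genes can also be compared with each other. The family summed to 175, 184 and 175 FPKM in controls and 380, 368 and 392 FPKM with ILL. MAP1LC3B made up 14.0% ± 0.48 (SD, n = 3) of that sum in controls and 29.6% ± 0.96 (SD, n = 3) with ILL, and GABARAPL1 went from 1.16% to 4.52%. The share of GABARAP was 59.6% in controls and 48.4% with ILL, and that of GABARAPL2 24.1% and 15.0%, although both genes rose. For each of the 6 genes the shares did not overlap between groups, with p = 0.1 in a two-sided exact permutation test over libraries, the smallest that 3 against 3 allows.

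**Figure D2:**
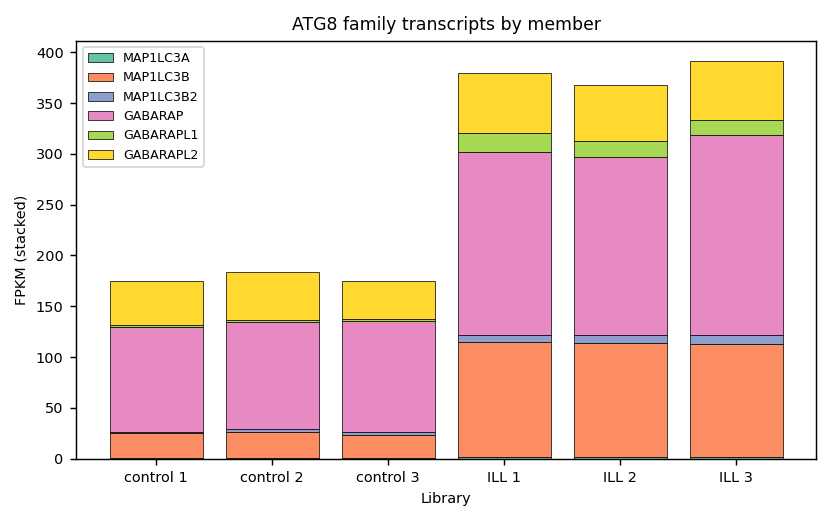
Stacked bars of FPKM (y axis) for the 6 ATG8 family genes in each library (x axis). The stacks reach 175 to 184 FPKM in controls and 368 to 392 FPKM with ILL, and the MAP1LC3B segment is the one that gains most.

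The 5 genes of the ULK initiation complex all rose (100%, against 36.2% of all tested genes). ULK1, the kinase that receives signals from mTORC1 and AMPK, had the largest increase of all 38 members. It was at 6.39, 5.15 and 5.23 CPM in controls and at 52.4, 62.8 and 50.2 CPM with ILL, and the lowest ILL library was above the highest control library by several fold. The log2 fold change was 3.30 ± 0.10 (SE), with an edgeR adjusted p of 4.3e-19, or 9.83-fold. ULK1 lies on chromosome 12 from 131894622 to 131923150. ATG13, which links the kinase to its scaffold, was at 56.5, 55.2 and 65.5 CPM in controls and 130, 131 and 130 CPM with ILL, and was the other DEG of the complex (log2 fold change 1.14 ± 0.06, SE). ULK2 rose by a log2 fold change of 0.85, RB1CC1, which encodes the scaffold FIP200, by 0.69, and ATG101, which stabilizes ATG13, by 0.24.

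In the class III PI3-kinase complex, 3 of 4 genes rose (75%, against 36.2% of all tested genes), all by less than 2-fold. PIK3C3, the catalytic subunit VPS34, was at 6.52, 8.17 and 6.45 CPM in controls and 9.54, 11.4 and 11.8 CPM with ILL, a narrow gap between groups (log2 fold change 0.63 ± 0.14, SE, with an edgeR adjusted p of 0.00025). ATG14, the subunit that targets the complex to autophagosome formation, and BECN1, its Beclin 1 scaffold, had log2 fold changes of 0.50 and 0.44. UVRAG, which takes the place of ATG14 in the endosomal form of the complex, did not pass the test, with a log2 fold change of 0.16 and a 95% interval from -0.02 to 0.33.

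Genes that read PI3P or supply lipid to the phagophore rose in 6 of 6 cases (100%, against 36.2% of all tested genes). WDR45, which encodes the PI3P-binding protein WIPI4, was at 11.4, 12.1 and 13.3 CPM in controls and 43.4, 47.6 and 46.2 CPM with ILL (log2 fold change 1.90 ± 0.08, SE). Its exons overlap PRAF2 on the same strand, and PRAF2 had a log2 fold change of 0.30. In controls PRAF2 had 462 to 492 counts per library, near the 426 to 472 of WDR45. With ILL PRAF2 had 541 to 589. The part of misassigned reads was not tested. WIPI1, a related PI3P effector, was at 6.39, 6.23 and 7.24 CPM in controls and 16.2, 16.5 and 18.2 CPM with ILL (log2 fold change 1.36 ± 0.12, SE). The groups did not overlap for either gene. ARSG, which overlaps WIPI1 on the opposite strand, had 87 to 157 counts per library and a log2 fold change of 0.61. WIPI2, which recruits the conjugation machinery, had a log2 fold change of 0.62. The lipid transfer genes ATG2A and ATG2B had values of 0.84 and 0.39, and ATG9A, a scramblase carried on vesicles that seed the phagophore, 0.37.

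Of the conjugation enzymes, 2 genes rose (33.3%), 2 fell (33.3%) and 2 did not pass, shares near the 36.2% and 36.9% of all tested genes. ATG3, the E2-like enzyme that transfers ATG8 proteins to lipid, was at 81.8, 81.2 and 88.3 CPM in controls and 63.5, 57.3 and 62.5 CPM with ILL. It fell by a log2 value of 0.45 ± 0.06 (SE), with an edgeR adjusted p of 4.7e-07, with no overlap between groups. ATG16L1, which positions the conjugation complex on the membrane, at 99.8, 99.2 and 106 CPM in controls and 84.9, 79.2 and 82.1 CPM with ILL, fell by 0.31 ± 0.06 (SE). ATG5, its partner in that complex, rose by 0.45, and ATG7, the E1-like enzyme, by 0.35. ATG12, the ubiquitin-like protein joined to ATG5, had a log2 fold change of 0.01 with a 95% interval from -0.14 to 0.17. ATG10, the enzyme that joins them, had 0.40 with a wide interval from -0.04 to 0.84, at 96 to 183 counts per library. The summed level of these 6 genes was 83.2 ± 0.21 FPKM (SD, n = 3) in controls and 71.0 ± 3.93 FPKM (SD, n = 3) with ILL. FPKM lacks the TMM scaling that CPM has here. Mean ATG12, for example, was 42.3 CPM in controls and 42.7 CPM with ILL, but 10.7 and 10.3 FPKM. The part of this scaling in the sum was not tested.

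ATG4 proteases trim newly made ATG8 proteins and later release them from membranes. ATG4C was at 5.51, 6.46 and 5.43 CPM in controls and 3.63, 3.72 and 3.66 CPM with ILL, lower in every ILL library. It fell by 0.66 ± 0.18 (SE), with an edgeR adjusted p of 0.0023, the largest decrease among the members. ATG4D and ATG4A rose by 0.26 and 0.31, and the ATG4A call did not pass without control replicate 1 (0.26, edgeR adjusted p of 0.0610) or without ILL replicate 3 (0.25, edgeR adjusted p of 0.0685). ATG4B, the most abundant ATG4 gene by FPKM, did not pass, with a 95% interval from -0.14 to 0.14. Exons of ATG12, ATG2B, ATG4B, ATG4D, ATG7 and BECN1 also overlap a counted gene on the opposite strand. Others overlap genes that are absent from the count table, whose reads could not be checked. Such partners lie on the same strand for GABARAP and ATG9A. For GABARAP, GABARAPL1, NBR1, TAX1BP1 and ATG101 they lie on the opposite strand. Whether the counting used strand is not given in the sources used here.

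**Figure D3:**
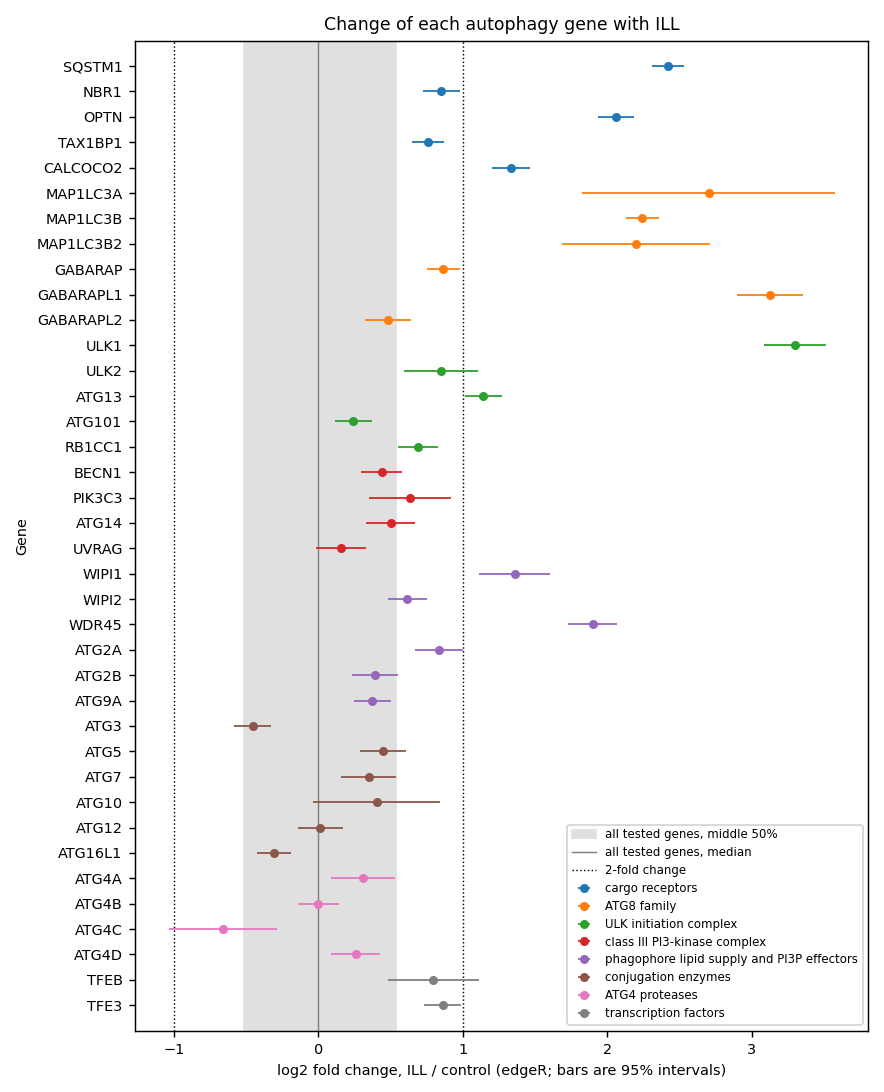
Log2 fold change of ILL over control (x axis) for each gene (y axis), with 95% intervals as bars and color by role; the gray band holds the middle 50% of all tested genes and the dotted lines mark a 2-fold change. The 11 DEGs lie right of the right dotted line, and most conjugation enzymes and ATG4 proteases lie within the band.

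**Figure D4:**
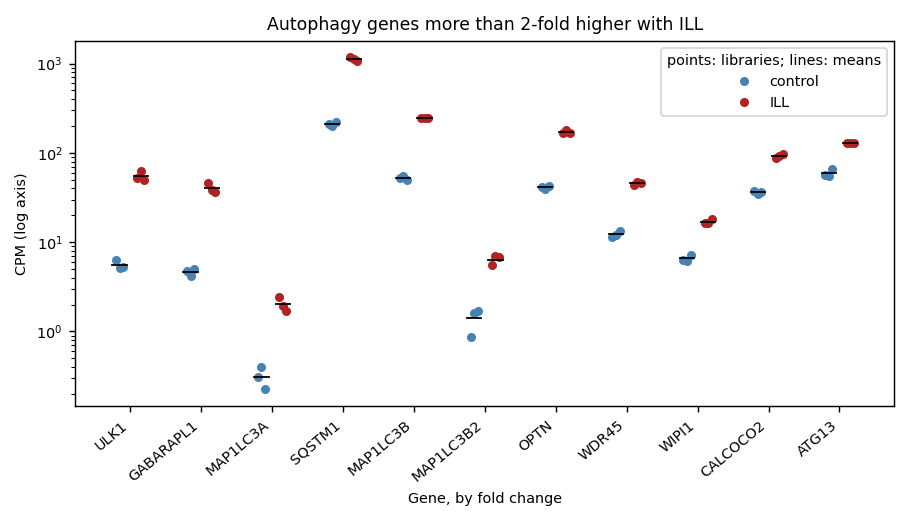
CPM on a log axis for the 11 DEGs, with 1 point per library and a line at each group mean. Control and ILL points are separate for every gene, from MAP1LC3A, under 0.4 CPM in each control library, to SQSTM1, at 1081 CPM or more in each ILL library.

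Both transcription factors of the list rose (100%, against 36.2% of all tested genes), by less than 2-fold. TFE3 was at 44.9, 42.7 and 45.5 CPM in controls and 76.9, 84.7 and 79.9 CPM with ILL (log2 fold change 0.86 ± 0.06, SE, with an edgeR adjusted p of 7.8e-12). TFEB was scarcer, at 4.77 ± 0.46 CPM (SD, n = 3) in controls and 8.28 ± 0.35 CPM (SD, n = 3) with ILL, a log2 fold change of 0.80. The activity of both factors is set largely by phosphorylation and nuclear entry, which these libraries do not measure.

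Paralogs were also compared within each library as ratios of FPKM, in 5 pairs chosen after the values were seen. The ULK1 to ULK2 ratio was between 1.21 and 1.32 in controls and between 6.61 and 7.18 with ILL. For GABARAPL1 to GABARAPL2 it was 0.0382 to 0.0596 in controls and 0.266 to 0.333 with ILL. The ratios of WIPI1 to WIPI2 and of ATG2A to ATG2B were also higher in every ILL library, by 0.74 and 0.45 on the log2 scale. For these 4 pairs the two-sided exact permutation test gave p = 0.1, the smallest possible (0.125 adjusted over the 5 pairs). The TFEB to TFE3 ratio overlapped between groups (p = 0.7 from the same exact test, 0.7 adjusted). Because the pairs were chosen with the values known, these p-values are descriptions and do not test the ratios.

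Promoter sequence was inspected for motifs of factors known to act on autophagy genes. RefSeq promoters on GRCh38.p14, from 250 bases before to 50 bases after the start, were at hand for 34 of the 38 genes and for 10 of the 11 DEGs. The E-box CACGTG, which TFEB and TFE3 can bind, was present in 2 of the 34 (5.88%, against 9.87% of promoters of tested genes and 7.43% of all promoters), and its longer form TCACGTGA, which contains it, in 1 (2.94%, against 1.87% and 1.04%). The core TGACNNNGC of the antioxidant response element bound by NRF2 was present in 3 (8.82%, against 15.1% and 13.6%), of which 2 belong to DEGs. The ATF4 composite element, searched as TTNCATCA, was present in 0 of the 34 (1.67% and 3.67% elsewhere). Both strands were searched at a single start per gene, so matches at other starts were not sought. The start used for ATG101 lies inside its listed span, chr12:52065300-52077495. A match describes letters in this window and not a bound site. The windows below are shown because they are the matches in the members discussed above, with the motif in capitals on the strand of the gene.

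CALCOCO2, antioxidant element on the reverse strand, chr17:48830896-48830925, plus strand: cgctcctgggGCCCGGTCAcctgaacacta
MAP1LC3B, antioxidant element, chr16:87392280-87392309, plus strand: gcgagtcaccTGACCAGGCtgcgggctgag
ATG101, antioxidant element, chr12:52069848-52069877, plus strand: tgtgcttctgTGACTACGCggatgttgtgg
ATG14, E-box, chr14:55411834-55411863, minus strand: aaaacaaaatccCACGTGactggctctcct
ATG3, E-box, chr3:112561963-112561992, minus strand: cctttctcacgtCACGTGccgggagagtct
ATG3, longer E-box, chr3:112561940-112561969, minus strand: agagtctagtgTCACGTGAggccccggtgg

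MAP1LC3B and CALCOCO2, with antioxidant element letters, were DEGs higher with ILL, while ATG101, with the same core, rose by 0.24 only. Of the members with E-box letters, ATG3, which has them on both sides of its start, fell and ATG14 rose by 0.50. Among the 10 DEG promoters, 0 held the E-box, against 9.87% of promoters of tested genes. The antioxidant core was in 2 (20%), against 15.1%. With so few promoters these shares are a description only.

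Further genes of the pathway were read in 4 lists of 82 genes in all, of which 77 were tested. Of these, 49 rose (63.6%) and 11 fell (14.3%), beside 36.2% and 36.9% of all tested genes. Calls in either direction made up 77.9%, near the 73.1% of all tested genes. Standard errors of the genes named from them, where not given, lay between 0.05 and 0.38 on the log2 scale. The receptors for organelles and ferritin rose in 14 of 19 cases (73.7%, against 36.2% of all tested genes). With a mean of at least 1 CPM, those highest by log2 fold change were RETREG1 (2.48), CALCOCO1 (2.36) and CCPG1 (1.40), receptors for the endoplasmic reticulum. RETREG1 met that mean only through the ILL libraries, with means of 0.43 CPM in controls and 2.41 CPM with ILL. NUFIP1, a receptor for ribosomes, fell by 1.32 and PHB2, a mitochondrial receptor, by 0.72. BNIP3, a mitochondrial receptor of hypoxic cells, was not tested, at 4 to 14 counts per library. In the fusion machinery, 12 of 15 genes rose (80%, against 36.2% of all tested genes) and the other 3 did not pass. Those that rose were led by PLEKHM1 (1.44), TECPR1 (1.32) and VPS39 (0.81).

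Among nutrient and energy sensing genes, 12 of 25 rose (48.0%) and 6 fell (24.0%). Calls in either direction made up 72% of this list, near the 73.1% of all tested genes. SESN2, an inhibitor of mTORC1 signaling, rose, with a log2 fold change of 2.91 ± 0.08 (SE), and the Rag GTPase genes RRAGC and RRAGD rose by 1.47 and 1.30. SESN3, another sestrin, fell by 1.22, MLST8, an mTOR complex subunit, by 0.51 and PRKAG2, an AMPK subunit, by 0.44. Of the other core and regulatory genes, 11 of 18 rose (61.1%) and 3 fell (16.7%), beside 36.2% and 36.9% of all tested genes. Calls in either direction made up 77.8% of that list, near the 73.1% of all tested genes. With a mean of at least 1 CPM, PINK1, the kinase that flags damaged mitochondria, rose by 0.84. NRBF2, a subunit of the PI3-kinase complex, rose by 0.81 and VMP1, a scramblase, by 0.69. Below that mean, ATG9B had a larger log2 fold change of 3.90 ± 0.55 (SE). ATG9B had 2, 3 and 8 counts in controls and 73, 77 and 41 counts with ILL. MITF, a relative of TFEB, fell by 1.14, PIK3R4, the VPS15 subunit, by 0.52 and EI24 by 0.45. MAP1LC3C had 0 counts in every library.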

How the data were processed

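RNA of HCCC9810 cells was sequenced in 3 ILL and 3 control libraries, grouped by their titles. Gene-level read counts, not normalized, and FPKM values were deposited by the authors with 1 column per library. Per the labels the processing notes name GRCh38 and DESeq2, and an aligner, counting program and strand setting are not given in the sources used here, so reads of overlapping or near-identical genes may be misassigned. Depth limits the precision of the scarcest members, such as MAP1LC3A.

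The counts were filtered with filterByExpr (13066 of 19470 genes kept), scaled by TMM and tested with edgeR 4.0.16 (R 4.3.3), glmQLFTest, with Benjamini-Hochberg adjustment over all tested genes. CPM values use the TMM library sizes. A DEG had a fold change above 2 or under 0.5 at an adjusted p under 0.05, as in the study's methods. Standard errors were derived from the F statistic. Shares and ratios used FPKM with exact permutation tests over libraries. Positions are from RefSeq (GRCh38.p14) and exon overlaps from GENCODE release 29.

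The 5 paralog pairs were added after the values were seen. Single values of some marker genes are not reported here. Members and lists were chosen with earlier results of these data known. Every member is named, with values per library for DEGs and for the largest change of each role. Of each further list, at most 3 genes at each end with a mean of at least 1 CPM are named. BNIP3, MAP1LC3C and ATG9B, below that mean, are named in addition. Alternatives were DESeq2 1.42.0 (size factors, Wald test), library size only, other filters, a replicate block, each library left out, and limma 3.58.1 on log2 of FPKM plus 1 or 0.1.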

Additional observations from a re-analysis of the deposited data

How the results depend on the processing

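Of the 38 genes, 34 had the same direction and call in each of the 15 alternatives in which they were tested. ATG12 (-0.06 to 0.08) and ATG4B (-0.07 to 0.03), which did not pass in any of them, changed sign in 7 and 6 alternatives. The calls that were lost were ATG4A, without control replicate 1 or ILL replicate 3, and ATG4D, which did not pass with limma on log2 of FPKM plus 1 without a filter (0.18, limma adjusted p of 0.0905). Without 1 library, between 30 and 31 members rose, 3 fell, 11 were DEGs higher and 0 lower, and the median log2 fold change lay between 0.65 and 0.72. That median was 0.59 with library size only, 0.47 with limma on log2 of FPKM plus 1, 0.61 on log2 of FPKM plus 0.1 and 0.44 on log2 of FPKM plus 1 without a filter, and the counts were 30 to 31 that rose, 2 to 3 that fell and 9 to 11 higher DEGs over all alternatives. The limma fits limited to a mean of at least 1 FPKM left out ATG4C, ATG10 and MAP1LC3A. The fall of ATG4C was thus not tested in them. Library size only moved the median of all genes to -0.07. With limma that median was -0.09 on log2 of FPKM plus 1, -0.10 on log2 of FPKM plus 0.1 and -0.003 on log2 of FPKM plus 1 without a filter. With raw counts in place of FPKM, the MAP1LC3B share was higher with ILL by 19.0 percentage points instead of 15.6. The replicate numbers did not pair the libraries (correlations of same-numbered deviations from -0.0218 to 0.0107), and with a replicate block the counts were 31 rising, 3 falling and 11 higher DEGs, with a median of 0.66. Depth limits MAP1LC3A, which the filter of at least 10 counts in every library removed, and ATG10.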
